A study of Mus musculus with 4 samples.

Results

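The genes described here are 40 interferon-stimulated genes and the interferon regulatory factors (IRFs) and STAT proteins that control them, chosen by gene symbol from the 54532 genes of the table. All 40 symbols were found, each in a single row, and 38 passed the filter on low counts and were tested; Mx2 and Ifi44 did not. Primary T cells, taken from mice rather than grown as a line, were cultured with serum, the T cell growth factor IL2 and beads that engage CD3 and CD28. The Control group (2 libraries) did not receive PTC, with no vehicle named, and the PTC group (2 libraries) did, and all 4 libraries carry the time label 12 h. The labels do not expand the name PTC, give no dose and do not state the strain, age or sex of the mice, the T cell subset, or whether libraries came from separate cultures, so the p-values rest on the spread among these 4 libraries alone, which may be technical. BMI1, a Polycomb group repressor, and immunotherapy of hepatocellular carcinoma are named in the series title.

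Interferons are secreted proteins that warn cells of infection. Type I interferons bind the receptor IFNAR, whose kinases JAK1 and TYK2 activate STAT factors; STAT2 and IRF9 are parts of a complex that binds the interferon-stimulated response element (ISRE) in promoters. Interferon gamma, a product of activated T cells and natural killer cells, acts through a receptor of its own and the gamma-activated site (GAS) in promoters, and raises IRF1, a further activator. The induced genes include sensors of foreign RNA and DNA and effectors that block viral replication, and in T cells they are also known to shape survival and proliferation.

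Promoter sequences show which of these genes carry the letters of these 2 elements. Promoters here are the 250 bases before and 50 bases after an annotated start, from RefSeq on GRCm38.p6, and 29 of the 40 genes had at least 1. The ISRE was searched as TTTC, any 2 bases and TTTC again, and the GAS as TTC, any 3 bases and GAA, on both strands. The ISRE letters were found in 14 of the 29 genes (48.3%), against 3.99% of the 27025 genes with a promoter in the table. The GAS letters were found in 9 of the 29 (31.0%), against 9.55% of all genes. A GAS match overlapped an ISRE match in Bst2, and in none of the other 28 genes. A match is a description of letters and not evidence of binding.

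The following full promoters belong to genes that the results turn on, the factors Irf1 and Irf8, the abundant effector Samhd1 and 3 neighbouring OAS genes, with motif letters in capitals. Irf8 and Irf1 have 2 annotated promoters each, and those at chr8:120738389-120738688 and chr11:53770223-53770522, not printed, hold no match of either kind. The promoter of Irf8 at chr8:120736108-120736407 (plus strand) holds 2 GAS matches, which begin at positions -171 and -153 from the start. The promoter of Irf1 at chr11:53769764-53770063 (plus strand) holds a GAS match at -90 and Samhd1 (chr2:157135047-157135346, minus strand) holds one at -235.
Irf8: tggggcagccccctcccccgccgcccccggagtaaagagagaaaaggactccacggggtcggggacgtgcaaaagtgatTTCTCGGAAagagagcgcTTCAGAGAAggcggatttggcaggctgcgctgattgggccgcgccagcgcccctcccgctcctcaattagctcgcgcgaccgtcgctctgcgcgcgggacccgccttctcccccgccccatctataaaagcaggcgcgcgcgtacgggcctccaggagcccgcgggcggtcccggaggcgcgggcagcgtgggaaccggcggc
Irf1: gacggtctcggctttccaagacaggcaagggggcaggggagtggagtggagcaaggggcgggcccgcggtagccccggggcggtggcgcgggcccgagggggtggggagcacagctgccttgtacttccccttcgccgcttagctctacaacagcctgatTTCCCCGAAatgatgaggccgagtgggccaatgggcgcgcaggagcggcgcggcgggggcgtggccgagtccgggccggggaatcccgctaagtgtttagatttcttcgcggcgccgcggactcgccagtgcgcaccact
Samhd1: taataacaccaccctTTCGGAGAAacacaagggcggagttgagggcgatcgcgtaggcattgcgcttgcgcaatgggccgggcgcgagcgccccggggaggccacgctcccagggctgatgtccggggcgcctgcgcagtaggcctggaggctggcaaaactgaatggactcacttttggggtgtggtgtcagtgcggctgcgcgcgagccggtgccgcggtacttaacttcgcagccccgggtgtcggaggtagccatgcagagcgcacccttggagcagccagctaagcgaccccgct

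Oas1a (chr5:120907476-120907775), Oas1g (chr5:120887564-120887863) and Oas3 (chr5:120777610-120777909) lie on the minus strand of a single gene cluster. The promoters of Oas1a and Oas1g share an unbroken run of 73 identical bases, which holds the same pair of overlapping ISRE matches just before the start, and Oas1a alone of these 3 also has a GAS match.
Oas1a: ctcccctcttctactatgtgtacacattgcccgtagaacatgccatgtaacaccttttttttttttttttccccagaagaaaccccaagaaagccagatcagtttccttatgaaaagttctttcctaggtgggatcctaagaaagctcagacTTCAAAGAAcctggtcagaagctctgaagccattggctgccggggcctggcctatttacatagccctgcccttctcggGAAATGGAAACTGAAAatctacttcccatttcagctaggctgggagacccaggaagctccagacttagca
Oas1g: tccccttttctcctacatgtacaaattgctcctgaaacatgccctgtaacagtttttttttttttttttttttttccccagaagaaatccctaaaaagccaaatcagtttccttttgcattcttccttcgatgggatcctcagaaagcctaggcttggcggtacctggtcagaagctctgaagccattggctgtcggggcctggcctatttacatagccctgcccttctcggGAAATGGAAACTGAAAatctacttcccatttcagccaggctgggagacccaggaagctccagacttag
Oas3: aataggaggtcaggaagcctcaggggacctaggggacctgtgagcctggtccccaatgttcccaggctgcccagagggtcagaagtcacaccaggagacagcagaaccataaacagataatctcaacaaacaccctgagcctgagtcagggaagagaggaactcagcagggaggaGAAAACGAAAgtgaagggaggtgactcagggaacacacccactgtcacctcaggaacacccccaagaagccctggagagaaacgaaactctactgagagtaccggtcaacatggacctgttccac

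ISRE matches of other genes are shown with up to 20 bases on either side, to compare the letters of classical antiviral effectors with those of Stat2 and Bst2. Where matches lie close together, as in Isg15 and Bst2, the capitals run on across them. The windows of Ifit3 (chr19:34583353-34583402) and Ifit3b (chr19:34607749-34607798) came out identical, within a run of 169 bases that the promoters of these neighbouring genes share.
Stat2: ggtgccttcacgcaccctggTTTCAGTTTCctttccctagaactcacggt
Isg15: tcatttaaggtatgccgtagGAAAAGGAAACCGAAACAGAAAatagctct
Bst2: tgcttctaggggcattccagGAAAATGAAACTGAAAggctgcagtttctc
Ifit1: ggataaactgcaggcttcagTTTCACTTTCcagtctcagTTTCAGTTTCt
Ifit3: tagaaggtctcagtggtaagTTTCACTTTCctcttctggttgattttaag
Ifit3b: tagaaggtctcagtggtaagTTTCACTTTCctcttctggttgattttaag
Rsad2: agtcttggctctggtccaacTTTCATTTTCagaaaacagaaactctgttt

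**Figure D1:**
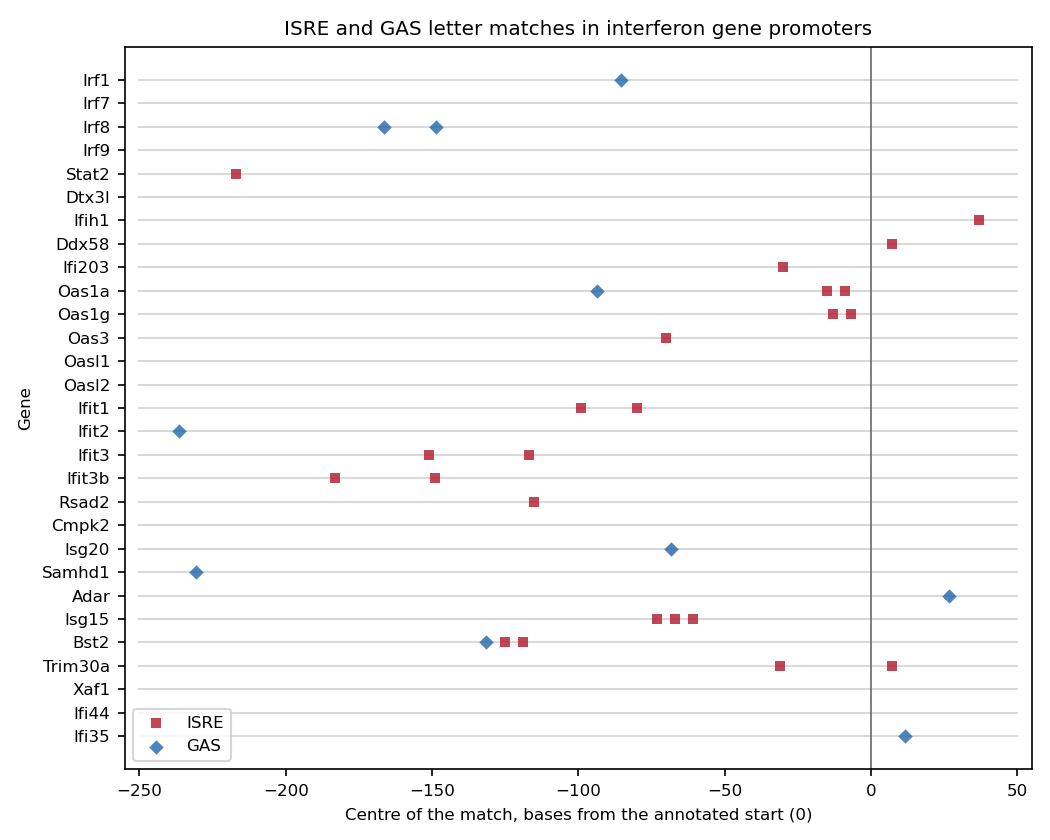
Positions of ISRE (squares) and GAS (diamonds) letter matches in the promoters of the 29 genes with a RefSeq promoter, as the distance of the match centre in bases from the annotated start at 0; grey lines span the bases searched. The ISRE matches of Oas1a, Oas1g, Oas3, Ifit1, Isg15 and Rsad2 lie between -115 (Rsad2) and -7 (Oas1g), and a GAS match appears in 9 genes, Irf1, Irf8 and Samhd1 among them.

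Depth was similar across libraries, from 15458818 to 16639911 counts, with 19254 to 19443 genes detected. A count of 0 in a library allows up to 0.184 to 0.195 CPM (counts relative to library size, scaled by the trimmed mean of M values), for counting error only. Counts of the Control libraries differed beyond sampling noise (chi-square over its degrees of freedom 7.51), as did those of the PTC libraries (4.68), so each library was counted as its own sample. All 16 T cell markers, the CD3 chains, Cd4 and Cd8a among them, were detected in every library, and summed to 6737 to 6989 CPM in Control and 7369 to 7536 CPM in PTC. Their median log2 fold change (PTC over Control) was 0.12, with 15 of 16 above 0 (93.8%, against 49.3% of all genes tested). None was called by edgeR, limma-voom or DESeq2, and 6 had an unadjusted p under 0.05 by edgeR (37.5%, against 12.9% of all genes).

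With PTC, none of the 38 tested interferon genes passed an adjusted p of 0.05 by edgeR's quasi-likelihood test, in a comparison where 188 of 13884 genes did (1.35%), 82 higher (0.591%) and 106 lower (0.763%). Limma-voom called 0 of them, where it called 1.41% of all genes, and DESeq2 called 0, where it called 1.93% of the 10654 genes to which it gave an adjusted p, 9 of the 38 having none. At an unadjusted p under 0.05 there were 12 of the 38 (31.6%), 10 higher and 2 lower with PTC, where 12.9% of all genes tested met this, 6.01% higher and 6.89% lower. That count was 8 with the replicate block, where 10.7% of all genes met this, and 5 by DESeq2, where 7.57% did. The log2 fold changes of the 38 (PTC over Control) had a median of 0.13, beside -0.003 for all genes tested. They ran from -0.68 for Oas1g to 0.70 for Rtp4. A positive value was found for 32 of the 38 (84.2%), against 49.3% of all genes. In bulk RNA, a change in the share of cells that make a transcript and a change in RNA per cell cannot be told apart.

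Both PTC libraries lay above both Control libraries in 17 of the 38 genes (44.7%), where 21.3% of all genes tested did so. Both lay below in 2, Oas1a and Oas1g, and 22.2% of all genes did so. In the other 19 the groups overlapped, while groups did not overlap in 43.6% of all genes. The 95% interval of the fold change lay within 1.5-fold either way for 24 of the 38 and within 2-fold for 30. The 8 genes whose interval reached beyond 2-fold were Rtp4 and Oas1g, with at most 116 counts in a library, and the scarce transcripts Ifi204, Oas2, Ifit1, Ifit3b, Mx1 and Rsad2.

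The libraries of a group also differed from each other in these genes. Control 2 stood above Control 1 in 25 of the 38, with a median log2 ratio of 0.15, and PTC 2 stood above PTC 1 in 9, with a median of -0.06, while the median ratio over all genes tested was 0.00 in both groups. The median difference between the Control libraries was thus as large as that between the groups. Without Control 2 the median log2 fold change of the same 38 genes was 0.22, and without Control 1 it was 0.10.

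**Figure D2:**
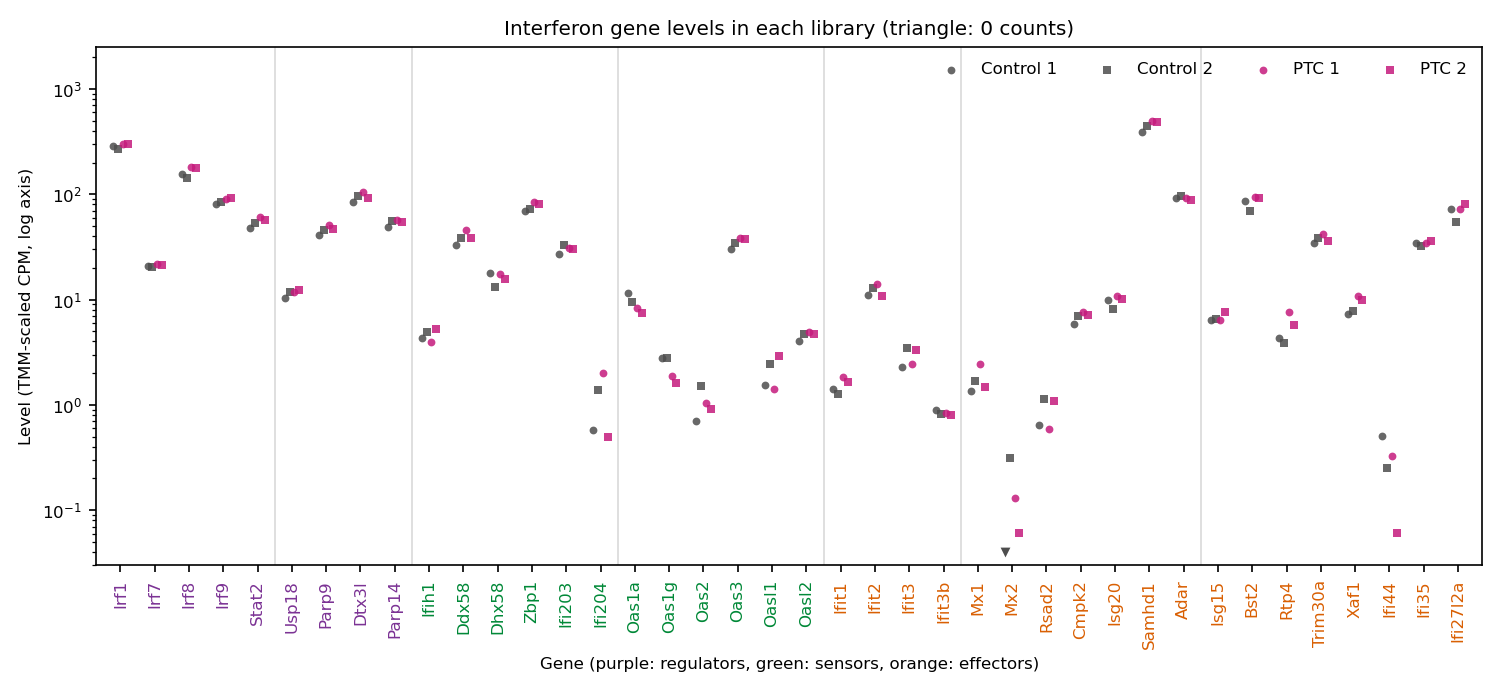
Levels of the 40 genes in each library, in TMM-scaled CPM on a log axis; circles are replicate 1 and squares replicate 2 of Control (grey) and PTC (magenta), gene names are coloured by role, and a triangle marks the library of Mx2 with 0 counts. The regulators lie between 10.3 and 302 CPM with little distance between libraries, while Ifi204, Mx2 and Ifi44 scatter near the detection limit.

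Levels per kilobase of gene length (RPKM, computed from the TMM-scaled CPM) set the genes apart more than treatment did. Ifi27l2a, a small membrane protein gene strongly induced by interferon, had the highest mean at 151 RPKM over the 4 libraries, followed by Bst2 at 94.0, Irf1 at 72.9, Samhd1 at 49.6 and Irf8 at 23.4. These 5 stood between the 82.6th and 97.6th percentile of all genes tested. At the other end, 12 of the 40 were under 1 RPKM, among them the classical antiviral genes Ifit1 (0.578), Ifit3b (0.419), Mx1 (0.461), Oas2 (0.234) and Rsad2 (0.200). Isg15, a ubiquitin-like modifier and among the most strongly induced of these genes in many cell types, stood at 8.96 RPKM.

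The IRF and STAT factors stand first in the chain of control. In each of the 5 genes both PTC libraries lay above both Control libraries, where 21.3% of all genes tested did so. Log2 fold changes ran from 0.07 to 0.28, and none was called by edgeR (0 by limma-voom and by DESeq2). At an unadjusted p under 0.05 by edgeR there were 2 of the 5, where 12.9% of all genes tested met this. Irf8 (ENSMUSG00000041515, chromosome 8, 120736358 to 120756694, plus strand, GRCm38 as for all coordinates here), a factor best known for myeloid and B cell development that T cells also express, stood at 156 and 143 CPM in Control 1 and 2 and at 183 and 179 CPM in PTC 1 and 2. Its PTC libraries were close together and above the Control libraries. The fold was 1.21 (95% interval 1.09 to 1.35), a log2 fold change of 0.28 (SE, the standard error, 0.08), and the adjusted p of 0.0818 by edgeR was the smallest of the 38. It was 0.0721 by limma-voom and 0.0574 by DESeq2.

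Irf8 passed the threshold under 2 alternatives, without a filter on low counts (adjusted p = 0.0343 by edgeR) and without Control 1 (0.0123), and moved to 0.665 without PTC 1. Markers of other blood cells, some of which are known to express Irf8 highly, were present in the same libraries. The 18 monocyte, macrophage and neutrophil markers summed to 1330 and 1349 CPM in Control and 1734 and 1571 CPM in PTC, most of it Lyz2; without Lyz2 they summed to 465 and 461 CPM in Control and 376 and 395 CPM in PTC. By edgeR 2 of the 18 were called higher (Lyz2 and S100a8) and 3 lower (Mpo, Elane and Cd14), against 0.591% and 0.763% of all genes. At an unadjusted p under 0.05 by edgeR there were 11 of the 18 (61.1%, against 12.9% of all genes), 6 higher and 5 lower. The 12 B cell markers summed to 538 and 532 CPM in Control and 565 and 576 CPM in PTC, with Igkc called higher. Log2 fold changes of the 11 tested B cell markers ran from -1.58 to 1.18, 9 above 0 and 2 below. An unadjusted p under 0.05 by edgeR was found for 1 higher and 1 lower (18.2%, against 12.9% of all genes). Without Ighm the B cell sums were 56.7 and 61.7 CPM in Control and 90.9 and 75.9 CPM in PTC, and none of the 18 or the 12 was at 0 in all libraries. The 12 dendritic cell markers summed to 61.3 to 62.0 CPM in Control and 63.8 to 64.1 CPM in PTC, and Siglech, Klk1 and Cd209a had 0 counts in all 4 libraries. The 8 natural killer cell markers summed to 122 and 124 CPM in Control and 161 and 147 CPM in PTC, with Eomes, a factor that CD8 T cells also express, called higher. The part of these cells in the values of Irf8 and of the other interferon genes was not tested.

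Stat2 (chromosome 10, 128270559 to 128292849), the STAT protein particular to type I and type III interferon signalling, stood at 48.0 and 53.7 CPM in Control and 60.6 and 56.4 CPM in PTC. The groups did not overlap, the value was 0.20 on the log2 scale (SE 0.09), and the unadjusted p of 0.0447 became 0.373 after adjustment by edgeR. Without Control 1 the log2 value was 0.13 (unadjusted p = 0.204 by edgeR). Irf9, the DNA-binding partner of STAT2, stood at 80.4 and 84.0 CPM in Control and 89.6 and 91.2 CPM in PTC, a log2 fold change of 0.14 (95% interval -0.03 to 0.30).

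Irf1, induced by interferon gamma and itself an activator, was the most abundant of the factors, at 290 and 268 CPM in Control and 302 and 300 CPM in PTC. Its interval of -0.05 to 0.27 on the log2 scale included 0. Irf7, the factor that amplifies type I interferon production, was the least abundant, at 20.8 and 20.3 CPM in Control and 21.8 and 21.4 CPM in PTC. The 4 libraries of Irf7 were nearly level, and the fold of 1.05 had an interval of 0.882 to 1.25, so a difference as large as 1.5-fold lay outside it.

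The 4 feedback genes and modifiers of signalling had log2 fold changes from 0.09 to 0.18, and none was called (0 by limma-voom and by DESeq2, 0 at an unadjusted p under 0.05). Usp18, the protease that removes ISG15 and also blocks the type I receptor, stood at 10.3 and 11.8 CPM in Control and 11.8 and 12.2 CPM in PTC. Parp9, whose protein pairs with DTX3L and enhances interferon-driven transcription, stood at 40.8 and 45.7 CPM in Control and 51.2 and 47.0 CPM in PTC. Neither difference passed, with adjusted p of 0.810 and 0.458 by edgeR. Dtx3l, the ubiquitin ligase of that pair, stood at 83.5 and 96.5 CPM in Control and 106 and 92.0 CPM in PTC, so that PTC 2 lay below Control 2. Parp14, an ADP-ribosyltransferase of the same locus, stood at 48.9 and 55.9 CPM in Control and 57.4 and 54.0 CPM in PTC, and the groups overlapped as well. Parp9 and Dtx3l overlap on opposite strands over 9.40% of the exon bases of Parp9, and without stated strandedness reads from the overlap cannot be told apart.

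**Figure D3:**
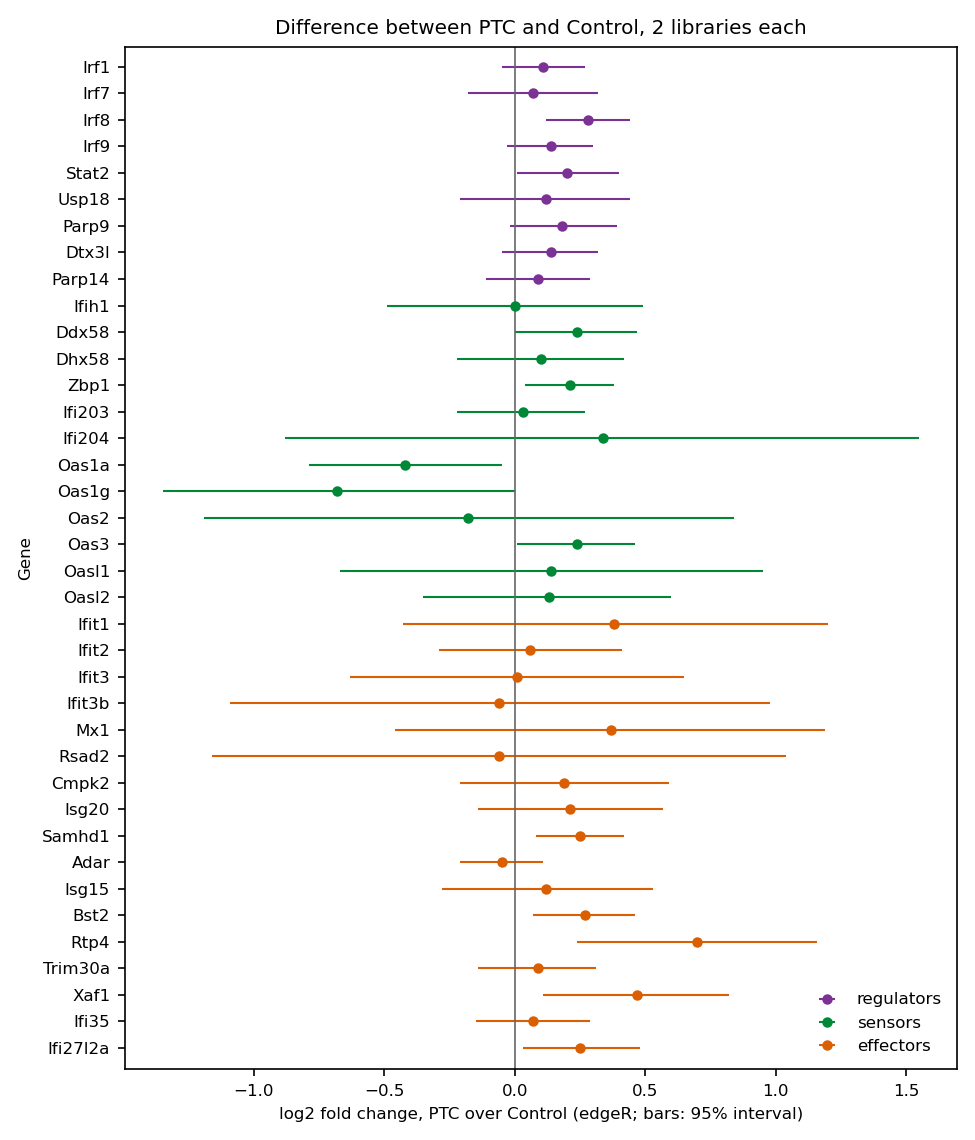
log2 fold changes of the 38 tested genes, PTC over Control with 2 libraries each, from edgeR with 95% intervals as bars, coloured by role. The 9 regulators all lie between 0.07 and 0.28, whereas Oas1a and Oas1g lie at -0.42 and -0.68 and Rtp4 at 0.70.

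Sensors of foreign nucleic acid were mixed. Of 12 sensors, OAS enzymes included, 9 had a positive log2 fold change (75%, against 49.3% of all genes tested), with a median of 0.11. None was called by edgeR (0 by limma-voom, 0 by DESeq2 with no adjusted p for 4). At an unadjusted p under 0.05 by edgeR there were 5 of the 12 sensors (41.7%, against 12.9% of all genes), 3 higher and 2 lower. By DESeq2 Zbp1 alone stayed under 0.05 (unadjusted p = 0.0363), where 7.57% of all genes did. The others of the 5 stood at 0.0778 (Oas3) to 0.151 (Oas1g) by DESeq2. Zbp1 (chromosome 2, 173206612 to 173218923), which binds Z-form nucleic acid and can start necroptosis, was the most abundant sensor per length. It stood at 69.4 and 72.8 CPM in Control and 85.0 and 79.9 CPM in PTC. The groups did not overlap, and the difference was 0.21 on the log2 scale, SE 0.08 (unadjusted p = 0.0178, adjusted p = 0.256 by edgeR). Ddx58, which encodes the RNA helicase RIG-I, stood at 33.0 and 38.2 CPM in Control and 45.3 and 38.6 CPM in PTC. PTC 1 was the high library of this gene, PTC 2 lay just above Control 2, and the log2 fold change was 0.24 (unadjusted p = 0.0477, adjusted p = 0.380 by edgeR). It was 0.12 without PTC 1 (unadjusted p = 0.433 by edgeR) and 0.14 without Control 1 (0.267).

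Other sensors overlapped between groups. Ifih1, which encodes the RNA helicase MDA5, stood at 4.28 and 4.90 CPM in Control and 3.97 and 5.21 CPM in PTC, a log2 fold change of 0.00. Dhx58, which encodes LGP2, a helicase that tunes RIG-I and MDA5, stood at 17.7 and 13.1 CPM in Control and 17.4 and 15.7 CPM in PTC. Its Control libraries differed more from each other than the group means did. Ifi203, a PYHIN protein gene of the cluster of DNA-binding interferon-inducible proteins, stood at 27.3 and 32.7 CPM in Control and 30.8 and 30.3 CPM in PTC. Ifi204, of the same cluster, had 9 and 22 counts in Control and 31 and 8 counts in PTC, and 30.2% of the 50-base words of its longest transcript also occur in other genes, so its counts are uncertain.

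Among the OAS enzymes, which make the second messenger that activates RNase L, neighbouring genes stood on opposite sides of 0. Oas3 (chromosome 5, 120753098 to 120777661) stood at 30.1 and 34.7 CPM in Control and 38.6 and 37.9 CPM in PTC. Oas1a (chromosome 5, 120896256 to 120907521) stood at 11.6 and 9.43 CPM in Control and 8.26 and 7.48 CPM in PTC. Oas1g (chromosome 5, 120876142 to 120887613) stood at 2.81 and 2.77 CPM in Control and 1.89 and 1.60 CPM in PTC. In all 3 genes the groups did not overlap, with PTC higher for Oas3 and lower for Oas1a and Oas1g.

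The log2 fold changes were 0.24 for Oas3 (SE 0.11), -0.42 for Oas1a (0.18) and -0.68 for Oas1g (0.32). Their adjusted p by edgeR were 0.348, 0.312 and 0.382, and 0.0384, 0.0282 and 0.0482 before adjustment. Without Control 1 the value of Oas3 was 0.15 (unadjusted p = 0.222 by edgeR) and that of Oas1a was -0.25 (0.229). Oas1a and Oas1g are not independent measurements, because 57.6% of the 50-base words of the longest Oas1a transcript also occur in Oas1g. Their counts depend on how reads that fit both were assigned. Summed, the pair stood at 14.4 and 12.2 CPM in Control and 10.1 and 9.08 CPM in PTC, which again left the groups apart. The promoters printed above carry ISRE letters in all 3 genes.

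The remaining OAS genes were scarce. Oas2 had 11 and 24 counts in Control and 16 and 15 counts in PTC, and Oasl1, a ubiquitin-like family member without the enzymatic activity, had 24 and 39 counts in Control and 22 and 48 counts in PTC. Oasl2, a relative that keeps the activity in mouse, stood at 4.02 and 4.71 CPM in Control and 4.88 and 4.66 CPM in PTC. The 95% intervals of their folds ran from 0.437 to 1.79 for Oas2, 0.628 to 1.93 for Oasl1 and 0.785 to 1.52 for Oasl2. Folds within those bounds, in either direction, remain possible with 2 libraries per group.

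Effectors ranged from scarce antiviral genes to abundant membrane proteins. Of 19 effector genes 17 were tested and 14 had a positive log2 fold change (82.4%, against 49.3% of all genes tested), with a median of 0.19. EdgeR called none (0 by limma-voom, 0 by DESeq2 with no adjusted p for 5). At an unadjusted p under 0.05 by edgeR there were 5 of the 17 (29.4%, against 12.9% of all genes). Samhd1 (chromosome 2, 157097533 to 157135265), the enzyme that depletes deoxynucleotides and restricts retroviruses, stood at 387 and 443 CPM in Control and 495 and 490 CPM in PTC. Both PTC libraries were nearly equal, Control 1 was the lowest library, and the fold was 1.19 (95% interval 1.06 to 1.33). The adjusted p was 0.157 by edgeR, 0.103 by limma-voom and 0.0793 by DESeq2, and passed without a filter on low counts (0.0487) and without Control 2 (0.0107). It was 0.246 without Control 1, 0.763 without PTC 1, 0.510 without PTC 2 and, when replicate number was a block, 0.259. The log2 fold change was 0.16 without Control 1 and 0.35 without Control 2.

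Bst2 (chromosome 8, 71534255 to 71537456), which encodes tetherin, a protein that holds budding virus at the cell surface, stood at 85.5 and 68.6 CPM in Control and 93.2 and 92.0 CPM in PTC. The low library was Control 2, and without Control 1 the log2 fold change went from 0.27 to 0.44 with an adjusted p of 0.00917 by edgeR, while without Control 2 it was 0.12 (0.516). Ifi27l2a showed the same split, at 72.8 and 54.6 CPM in Control and 71.9 and 79.9 CPM in PTC, so that the groups overlapped. Its log2 fold change of 0.25 (adjusted p = 0.323 by edgeR) became 0.48 without Control 1 (0.0120) and 0.06 without Control 2 (0.789).

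Rtp4 and Xaf1 had the highest positive fold changes of the tested interferon genes, at low levels. Rtp4 (chromosome 16, 23520291 to 23614222), a Golgi chaperone gene that also restrains interferon responses, had 67 and 62 counts in Control and 116 and 94 counts in PTC, or 4.28 and 3.90 against 7.55 and 5.77 CPM. The groups did not overlap, though the PTC libraries lay further from each other than PTC 2 from Control 1. The fold was 1.62 (95% interval 1.18 to 2.24, adjusted p = 0.148 by edgeR). An annotated gene on the same strand, Gm45338, overlaps 13.9% of the Rtp4 exon bases. Xaf1 (chromosome 11, 72301629 to 72313733), a binding partner of the apoptosis inhibitor XIAP, stood at 7.28 and 7.73 CPM in Control and 10.9 and 9.82 CPM in PTC. Its groups did not overlap either, with a fold of 1.38 (95% interval 1.08 to 1.77; adjusted p = 0.231 by edgeR). The log2 fold changes of Rtp4 and Xaf1 stayed positive in all 10 alternatives, from 0.50 to 0.88 and from 0.39 to 0.54. For both genes the lowest value was that without PTC 1. By DESeq2 the unadjusted p was 0.0268 for Rtp4 and 0.0543 for Xaf1, and the adjusted p 0.394 and 0.548.

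The IFIT genes, whose proteins bind viral RNA, showed no separation of the groups apart from Ifit1. Ifit2, the most abundant, stood at 11.1 and 12.9 CPM in Control and 14.2 and 10.8 CPM in PTC. Ifit1 had 22 and 20 counts in Control and 28 and 27 counts in PTC, a log2 fold change of 0.38 whose 95% interval ran from -0.43 to 1.20. Ifit3 had 36 and 55 counts in Control and 38 and 54 counts in PTC, and Ifit3b had 13 or 14 counts in each library. As 51.2% of the 50-base words of Ifit3 also occur in Ifit3b, the division of reads between them is uncertain; summed, they stood at 3.19 and 4.27 CPM in Control and 3.32 and 4.11 CPM in PTC. In this pair the second library of each group was the higher.

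Antiviral GTPases and nucleotide enzymes were scarce apart from Samhd1, Adar and Isg20. Mx1, a GTPase that blocks influenza virus and is inactive in many laboratory mouse strains, had 21 and 27 counts in Control and 38 and 24 counts in PTC, and Mx2, its paralog, had 0 and 5 counts in Control and 2 and 1 counts in PTC. Rsad2, which encodes viperin, had 10 and 18 counts in Control and 9 and 18 counts in PTC. Its neighbour Cmpk2, a mitochondrial nucleotide kinase gene, stood higher, at 5.88 and 7.04 CPM in Control and 7.61 and 7.12 CPM in PTC. Isg20, an exonuclease gene, stood at 9.97 and 8.11 CPM in Control and 10.7 and 10.2 CPM in PTC. In the last pair of genes the PTC libraries lay above the Control libraries by less than their intervals could separate from 0.

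Adar, the RNA editing enzyme that keeps cellular double-stranded RNA from being sensed, stood at 91.4 and 95.3 CPM in Control and 91.8 and 88.3 CPM in PTC, a fold of 0.965 with an interval of 0.862 to 1.08. This was among the tightest bounds of the tested genes. Antisense Chrnb2 overlaps 16.8% of the Adar exon bases, and antisense Gm11626 overlaps as much of Ifi35. Ifi35, a gene of the nuclear and cytosolic NMI complex, stood at 34.7 and 32.1 CPM in Control and 34.5 and 35.7 CPM in PTC. Trim30a, a TRIM family gene that dampens innate signalling, stood at 34.8 and 38.5 CPM in Control and 41.8 and 36.0 CPM in PTC. Isg15 stood at 6.39 and 6.60 CPM in Control and 6.44 and 7.67 CPM in PTC, and the 95% interval of its fold was 0.822 to 1.44. Ifi44, a cytosolic protein gene, had 8 and 4 counts in Control and 5 and 1 counts in PTC and was too scarce to test.

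**Figure D4:**
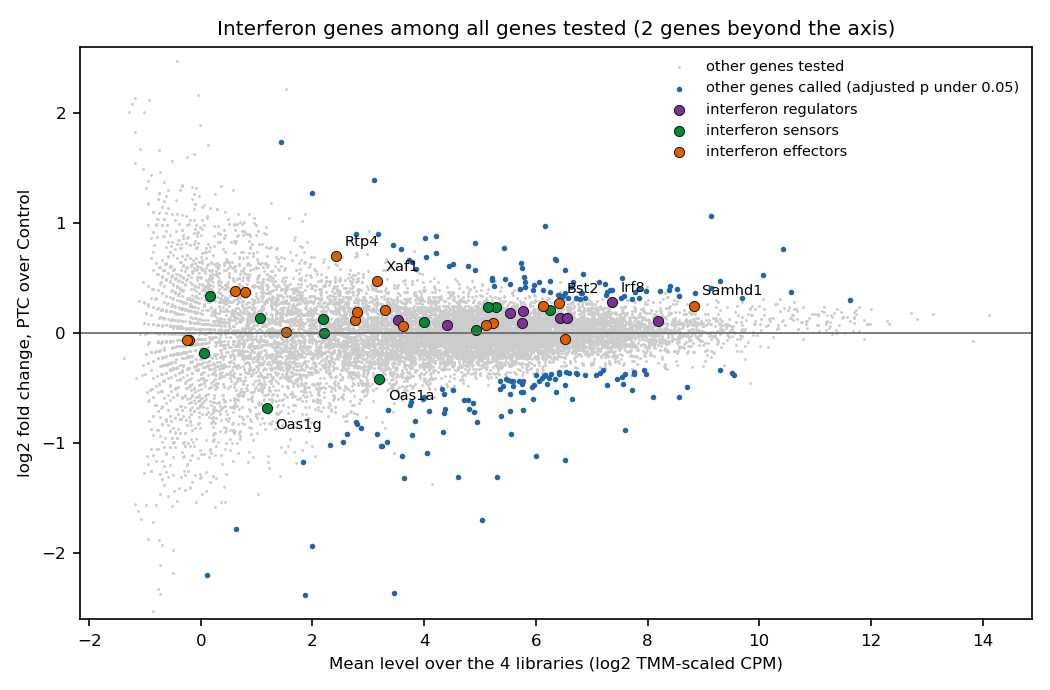
log2 fold change (PTC over Control) against mean level (log2 TMM-scaled CPM) for the 13884 genes tested; blue points are the other genes called at an adjusted p under 0.05, large points the interferon genes by role, and 2 genes lie beyond the vertical axis. No interferon gene is called; Oas1a, Oas1g and Rtp4 lie at -0.42, -0.68 and 0.70.

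The upstream pathway was described by lists of genes arranged by role. Counts of interferon ligands were nearly absent, as 17 of the 21 ligand genes, Ifnb1 and 13 Ifna genes among them, had 0 counts in all 4 libraries. For reads that fit 1 gene alone, this allows up to 0.184 to 0.195 CPM in each. How reads that fit several ligand genes were counted is not given, and the shared sequence of the ligands was not measured. Ifng was the single ligand gene expressed enough to test, with 24 and 20 counts in Control and 21 and 24 counts in PTC (log2 fold change 0.03, adjusted p = 0.987 by edgeR). The Ifng counts of the groups overlapped. Ifnar1 and Ifnar2, which encode the subunits of the type I receptor, differed little between groups. Ifnar1 stood at 128 and 135 CPM in Control and 132 and 134 CPM in PTC, and Ifnar2 had means of 75.9 ± 1.37 CPM over the Control and 76.0 ± 0.377 CPM over the PTC libraries (SD, n = 2). The 95% intervals of both lay within -0.17 to 0.17 on the log2 scale.

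Of the 9 receptor and kinase genes none was called by edgeR (0 by limma-voom, 0 by DESeq2). An unadjusted p under 0.05 by edgeR was found in 1 (11.1%, against 12.9% of all genes tested). Ifngr2, which encodes a subunit of the interferon gamma receptor, had the smallest p, with 27.9 and 28.5 CPM in Control and 35.5 and 32.6 CPM in PTC. Both PTC libraries lay above both Control libraries, by 0.27 on the log2 scale, SE 0.11 (unadjusted p = 0.0227, adjusted p = 0.285 by edgeR). Of 14 tested sensing adaptors and kinases none was called (0 by limma-voom, 0 by DESeq2), and 7 lay on each side of 0. An unadjusted p under 0.05 by edgeR was found in 2 (14.3%, against 12.9% of all genes). The smallest p was that of Ikbke, a kinase gene that activates IRF3 and IRF7 (adjusted p = 0.312 by edgeR).

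Among 10 inhibitors of interferon signalling edgeR called 1, Socs1, whose protein blocks JAK kinases (1 by limma-voom, 1 by DESeq2). At an unadjusted p under 0.05 by edgeR there were 4 (40%), all higher, where 12.9% of all genes tested met this. Both PTC libraries lay above both Control libraries in 6 of the 10 and below in 2, against 21.3% and 22.2% of all genes. Socs1 stood at 136 and 133 CPM in Control and 176 and 171 CPM in PTC, which is 0.37 on the log2 scale, SE 0.07 (adjusted p = 0.0175 by edgeR). The call was lost without PTC 1 (0.286) and without PTC 2 (0.0971). Of 52 tested further interferon-stimulated genes edgeR called 1 higher, Ifi47, an immunity-related GTPase gene. It stood at 186 and 196 CPM in Control and 261 and 231 CPM in PTC (log2 fold change 0.37, SE 0.08, adjusted p = 0.0251 by edgeR). Without PTC 1 the log2 fold change was 0.27 and the call was lost. Limma-voom and DESeq2 each called 2 in that list, Ifi47 and Ly6e, a membrane protein gene named here after its values were seen. Ly6e stood at 1148 and 1188 CPM in Control and 1383 and 1407 CPM in PTC, with adjusted p of 0.0911 by edgeR, 0.0485 by limma-voom and 0.00707 by DESeq2. Of the 52 genes, 38 had a positive value (73.1%, against 49.3% of all genes), with a median of 0.11. At an unadjusted p under 0.05 by edgeR there were 8 of the 52 (15.4%), all higher, where 12.9% of all genes tested met this. Both PTC libraries lay above both Control libraries in 24 of the 52 and below in 7, against 21.3% and 22.2% of all genes. Over all 5 lists 2 of 86 tested genes were called by edgeR, beside 1.35% of all genes, and 3 by limma-voom and by DESeq2.

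**Figure D5:**
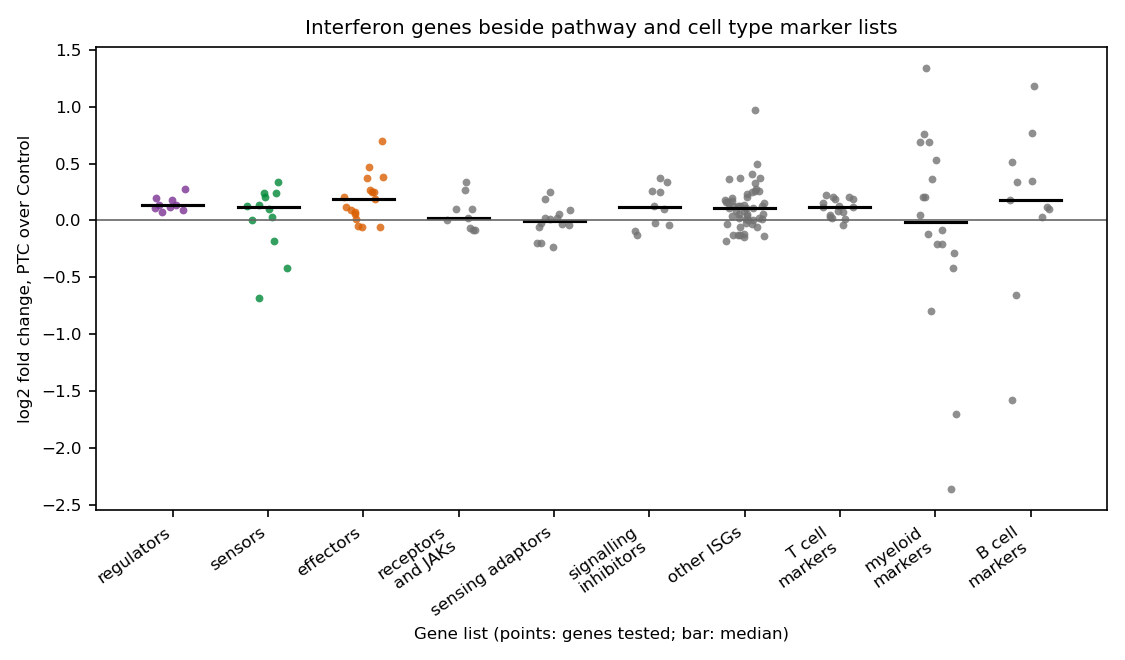
log2 fold changes (PTC over Control) of tested genes in each list, with the median as a bar; regulators, sensors and effectors are the 38 interferon genes, the other lists are pathway genes and cell type markers. The medians of the regulators (0.14), effectors (0.19) and T cell markers (0.12) lie close together, while single myeloid markers reach from -2.36 to 1.34.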

How the data were processed

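RNA from 4 libraries of mouse primary T cells was sequenced. The deposited table of the authors gives whole-number read counts per gene, and, per the submitters' processing notes, CASAVA 1.8, HISAT2 2.0.5 and featureCounts 1.5.0-p3 were used. For genome build, strandedness and multi-mapped reads, the handling is not given in the sources used. All 40 interferon genes had the same coordinates in GENCODE M21 (GRCm38), as did 98.3% of the 54409 table IDs found there. A further 2 columns of counts belong to no sample here and were not used.

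Samples were grouped by treatment label and replicates numbered by title. Genes were filtered with filterByExpr (13884 left), scaled by TMM and compared by edgeR 4.0.16 (R 4.3.3) with the quasi-likelihood test on group alone, with Benjamini-Hochberg adjustment over all genes and a threshold of 0.05. The standard error is the log2 fold change over the square root of F, and 95% intervals use the test's degrees of freedom. The procedure was checked on simulated counts. CPM are TMM-scaled, RPKM divide them by the table's gene length, and a floor is 3 counts. Alternatives were RLE and upper-quartile scaling, no filter (at least 1 count in all), limma-voom (limma 3.58.1), DESeq2 1.42.0, a replicate block and leaving out each library, all on the same genes where a filter was kept. Shared sequence is the share of 50-base words of a gene's longest transcript found in transcripts of other genes, on either strand.

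The genes and lists were chosen with earlier results of these data known, so no test over a list was made. Values were given for all called genes, all with an unadjusted p under 0.05, all regulators and the most abundant gene of each subgroup, with the other interferon genes added by level. From each pathway list the called genes or the gene with the smallest p were named, with Ifng, Ifnb1, Ifnar1 and Ifnar2; a further named gene is not reported here.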

Additional observations from a re-analysis of the deposited data

How the results depend on the processing

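The median log2 fold change of the 38 interferon genes was positive under all 10 alternatives. With RLE or upper-quartile scaling, limma-voom, DESeq2 or the replicate block, no interferon gene was called and the smallest adjusted p lay between 0.0536 and 0.125. When scarce genes were kept in, 22980 genes were tested and 432 were called. Among the called genes were 2 interferon genes (Irf8 and Samhd1) and 4 other pathway genes. The smallest adjusted p among the interferon genes was then 0.0343 by edgeR, and the cause of this shift was not tested. Each fit with a library left out tested 13884 genes, as in the main comparison. With each library left out in turn, 73 to 369 genes, 0 to 3 interferon genes and 0 to 4 other pathway genes were called, the smallest adjusted p ran from 0.00917 to 0.419 and the median log2 fold change from 0.10 to 0.22. The spread in those fits came from the group that kept both libraries, and the lone library was assumed to vary like them. Upper-quartile scaling put 118 of 225 calls over all genes higher, against 82 of 188 with TMM.

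The labels number the libraries 1 and 2 in each group without saying that a number is shared. The differences between the libraries of the groups correlated at -0.058 over genes, so the numbers were not taken as pairs. With the replicate block 237 genes were called and 0 interferon genes, with a smallest adjusted p of 0.125.

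Of 430 single-gene values under alternatives, 26 turned sign, in 16 genes near 0 or with few counts, 24 of them with a library left out. Ifih1 was at -0.01 by limma-voom and 0.00 (below 0 before rounding) with the replicate block. With a library left out the log2 fold change ran from -0.21 to 0.18 for Ifih1, -0.10 to 0.34 for Dhx58, -0.09 to 0.17 for Ifi203, -0.99 to 1.10 for Ifi204, -0.61 to 0.48 for Oas2, -0.48 to 0.56 for Oasl1, -0.15 to 0.25 for Ifit2, -0.25 to 0.34 for Ifit3, -0.12 to 0.01 for Ifit3b, -0.05 to 0.70 for Mx1, -0.59 to 0.41 for Rsad2, -0.01 to 0.24 for Isg15, -0.03 to 0.19 for Trim30a, -0.11 to 0.18 for Ifng, -0.02 to 0.06 for Ifnar1 and -0.02 to 0.03 for Ifnar2. The direction of the difference in these genes was not resolved with 2 libraries per group.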
